A study of Mus musculus with 9 samples.

Results

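Checkpoint and nectin-binding receptors are surface proteins through which lymphocytes are held back or activated by the cells they touch. This account follows 9 of them in innate lymphoid cells (ILCs) sorted from mouse skin: Cd226, Tigit, Cd96, Btla, Pdcd1, Ctla4, Lag3, Havcr2 and Cd200r1. They were found by gene symbol in the annotation of the array. Each of the 9 genes had 1 probe set of its own, which makes 9 of the 24922 probe sets measured, and none of these carried a second symbol.

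Of the receptors, 3 share ligands of the nectin family. CD226 (Cd226, also called DNAM-1) activates lymphocytes when it binds the poliovirus receptor or nectin-2, while TIGIT (Tigit) binds the same ligands with inhibitory effect, and CD96 (Cd96) competes for the poliovirus receptor with a reported effect that depends on the cell. PD-1 (Pdcd1) and CTLA-4 (Ctla4) are the inhibitory receptors best known from T cells, and LAG-3 (Lag3), TIM-3 (Havcr2), BTLA (Btla) and the CD200 receptor (Cd200r1) also dampen immune cells. Several of them, PD-1 among them, have been described on activated group 2 ILCs, the type 2 cytokine producers that are common in skin.

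The study compared CCR10-expressing with CCR10-negative skin ILCs (CCR10 is a chemokine receptor of skin-homing cells), both in Rag1-/- mice, which make no mature T or B cells, and in Rag1-sufficient mice. Samples fell into 4 groups: 2 of Rag1-/- GFP+ cells, 3 of Rag1-/- GFP- cells, 2 of Rag1-sufficient GFP+ cells and 2 of Rag1-sufficient GFP- cells. All mice were female, of the B6 strain, and carried CCR10+/EGFP, in which EGFP sits at 1 Ccr10 allele and reports its activity, so the controls too have a single intact Ccr10 copy. Ages were not given. Cells were gated as CD45.2+, negative for CD3 and for a lineage panel (CD5, CD11b, B220, 7-4, Gr-1 and Ter-119), and went into Trizol at once. Nothing in the labels ties replicates to separate animals, so every p-value here reflects sample-to-sample spread alone, and that spread may be technical.

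Each value is the deposited intensity of a probe set on a linear scale, and levels of different genes cannot be set against each other. Array medians ran from 74.1 to 77.6. Rag1 read 28.4 to 31.4 on all 9 arrays, under the limit of 41.6 below which probe sets were left out, so it gave no check of the genotype. Ccr10 read 163 and 130 in Rag1-sufficient GFP+ cells, against 129 and 126 in GFP- cells (log2 difference 0.19). In Rag1-/- mice it read 148 and 96.5 in GFP+ cells, overlapping 103, 125 and 109 in GFP- cells (0.10). Neither difference passed the adjusted test, so Ccr10 levels did not clearly mark the fractions. The general ILC genes were bright, Il7r at 2566 to 3806 and Id2 at 6727 to 7905. Although CD3 was gated out, Cd3g read 1831 and 3512 in Rag1-/- GFP+ cells and 2638 to 4859 in Rag1-/- GFP- cells. In Rag1-sufficient mice Cd3g read 1408 and 1767 in GFP+ cells, and 891 and 932 in GFP- cells. Other T cell genes varied: over all arrays Cd3e read 157 to 1981, Cd3d 27.1 to 125, Cd5 59.8 to 82.1 and Cd8a 51.7 to 67.5. Cd27 (1502 to 3168) and Lat (709 to 1221) were well above the limit on every array. Genes of NK cells and ILC1s differed: Eomes (29.4 to 41.8) and Ncr1 (35.7 to 51.4) stayed near or below the limit throughout. Others were well above it on every array, among them Xcl1 (109 to 1901), Klrk1 (102 to 560), Tbx21 (193 to 661) and Prf1 (101 to 258). The Rag1-/- GFP+ replicates stood apart from each other: the mast cell protease gene Cpa3 read 2085 in replicate 1 and 19.9 in replicate 2. Their highest array was 1.59 times their lowest in the median receptor, against 1.25 times in Rag1-/- GFP-, 1.08 times in Rag1-sufficient GFP+ and 1.06 times in Rag1-sufficient GFP- cells. Many differences that involve this group move with the array left out, and such values are given beside them.

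Chromosome 16 carries 4 of the 9 genes, in the order Tigit, Cd200r1, Btla and Cd96, with 14, 6 and 11 protein-coding genes between neighbours. Ctla4 and Pdcd1 share chromosome 1 at a distance of 279 protein-coding genes, and Havcr2, Lag3 and Cd226 lie alone on chromosomes 11, 6 and 18. All 9 receptors had non-overlapping fractions in Rag1-sufficient mice, beside 50.2% of all probe sets, so this does not set single receptors apart. No promoter was at hand for Cd200r1. The promoters shown are those of Tigit, Cd96 and Btla from chromosome 16, and of Pdcd1 from another chromosome, which read lower in GFP+ cells of Rag1-sufficient mice. Each runs 5′ to 3′ on the gene's own strand, 250 bases before to 50 after the start, as given by RefSeq on GRCm38.p6: Tigit chr16:43664135-43664434 on the minus strand, Cd96 chr16:46120199-46120498 on the minus strand, Btla chr16:45224087-45224386 on the plus strand, and Pdcd1 chr1:94052504-94052803 on the minus strand. Capitals mark matches, on either strand, to short motifs of 6 families of lymphocyte transcription factors and to the GC box, whose letters are spelled out with their frequencies after the sequences.
Tigit: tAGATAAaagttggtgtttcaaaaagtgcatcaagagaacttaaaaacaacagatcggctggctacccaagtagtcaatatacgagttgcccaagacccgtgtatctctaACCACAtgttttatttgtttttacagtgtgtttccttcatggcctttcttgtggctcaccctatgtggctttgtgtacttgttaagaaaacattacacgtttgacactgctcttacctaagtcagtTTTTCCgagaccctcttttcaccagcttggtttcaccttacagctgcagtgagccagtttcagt
Cd96: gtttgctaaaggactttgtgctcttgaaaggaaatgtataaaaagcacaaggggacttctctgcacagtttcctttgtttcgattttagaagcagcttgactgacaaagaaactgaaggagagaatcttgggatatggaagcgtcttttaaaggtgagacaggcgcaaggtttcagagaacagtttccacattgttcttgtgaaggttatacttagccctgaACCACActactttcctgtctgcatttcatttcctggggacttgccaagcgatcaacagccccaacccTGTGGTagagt
Btla: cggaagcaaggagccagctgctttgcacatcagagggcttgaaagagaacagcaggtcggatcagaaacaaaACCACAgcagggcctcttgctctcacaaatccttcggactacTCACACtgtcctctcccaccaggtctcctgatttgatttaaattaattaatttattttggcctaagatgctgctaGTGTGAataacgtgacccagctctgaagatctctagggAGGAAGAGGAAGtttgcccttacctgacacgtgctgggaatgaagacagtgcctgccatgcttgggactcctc
Pdcd1: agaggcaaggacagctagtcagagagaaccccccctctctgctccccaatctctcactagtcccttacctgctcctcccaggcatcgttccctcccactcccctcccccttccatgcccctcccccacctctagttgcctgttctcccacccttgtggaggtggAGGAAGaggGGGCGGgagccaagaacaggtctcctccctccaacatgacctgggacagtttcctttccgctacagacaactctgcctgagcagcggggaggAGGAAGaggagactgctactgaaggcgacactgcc

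The RUNX motif, searched as TGTGGT, occurred in Tigit (1 match), Cd96 (2 matches) and Btla (1 match). Matches were counted in the promoters of 6 receptors, those shown plus Havcr2 and Ctla4, and not in those of Cd226, Lag3 or Cd200r1. Of the 6, 4 held the RUNX motif, while it is found in 16.8% of 32851 mouse promoters of this length. Btla also held 2 ETS and 2 T-box matches, with the ETS pair end to end. Pdcd1 held 2 ETS matches and a GC box, and had the highest GC content of the 6 (60.7%, against 41.3% for Tigit and a median of 52.7% over all promoters). The ETS motif, searched as AGGAAG, is in 35.4% of all promoters, and the T-box motif, searched as TCACAC, is in 14.5%. For NFAT the letters were GGAAAA (23.4% of promoters), for GATA factors they were AGATAA (11.2% of promoters), and for the GC box they were GGGCGG (35.7% of promoters). The ETS and NFAT motifs share the letters GGAA, and none of the marked matches overlap. The AP-1 motif, searched as TGAGTCA (5.20% of promoters), was in none of the 6. Such matches describe letters only.

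Levels were compared with limma on log2(intensity + 1), a scale that understates differences of dim genes, with p-values adjusted over all 17445 probe sets above the limit. All 9 receptor probe sets passed that limit on their mean. No receptor passed an adjusted p of 0.05 in any of the 7 comparisons made, so what follows gives levels, their spread and the sizes of differences.

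**Figure D1:**
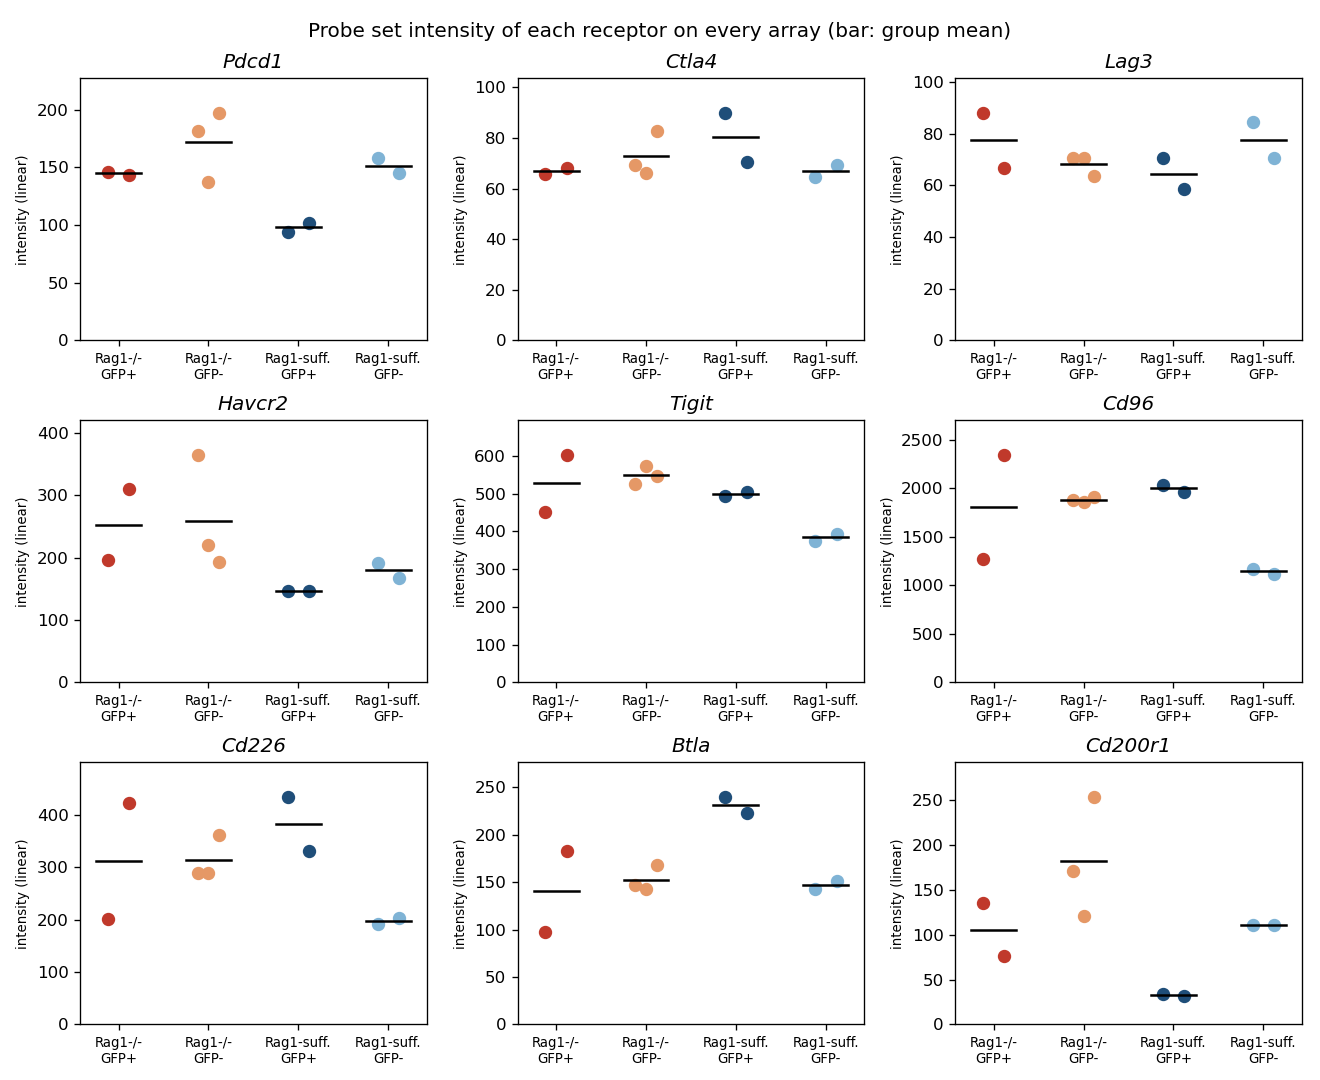
Intensity of each receptor's probe set (linear axis from 0, 1 panel per gene) on every array, with 1 point per array and a bar at the group mean; Rag1-/- groups stand left of Rag1-sufficient ones. Cd96 read 1174 and 1119 on the Rag1-sufficient GFP- arrays and 1965 or more on the GFP+ arrays of the same mice, and Cd200r1 shows the opposite order.

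Among the nectin-binding receptors, Cd96 read 2034 and 1965 in Rag1-sufficient GFP+ cells, against 1174 and 1119 in Rag1-sufficient GFP- cells. The fractions did not overlap and each was tight. The GFP+ level was 1.74 times the GFP- level (log2 difference 0.80 ± 0.24 SE, adjusted p = 0.206). Over the alternatives tried, the adjusted p of Cd96 ran from 0.0136 with array weights to 0.786 without Rag1-sufficient GFP- replicate 2. It was 0.0158 or 0.0166 when Rag1-/- GFP+ replicate 1 or 2, which enter the common estimate of spread, was omitted. In Rag1-/- mice Cd96 read 1274 and 2349 in GFP+ cells and 1877, 1856 and 1910 in GFP- cells. Here the GFP+ arrays lay on either side of all 3 GFP- arrays, and the difference was -0.12 ± 0.22 (adjusted p = 0.865). Leaving out Rag1-/- GFP+ replicate 1 or replicate 2 gave 0.32 or -0.56.

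The activating receptor Cd226 also had its lowest mean in Rag1-sufficient GFP- cells, with wider replicates elsewhere. It read 435 and 331 in Rag1-sufficient GFP+ cells, against 192 and 203 in Rag1-sufficient GFP- cells, a log2 difference of 0.94 ± 0.31 (1.92 times, adjusted p = 0.253). In Rag1-/- mice it read 201 and 422 in GFP+ cells, on either side of 289, 289 and 361 in GFP- cells. Those groups overlapped, with a difference of -0.09 ± 0.29 (adjusted p = 0.921), which became 0.44 or -0.63 without GFP+ replicate 1 or 2.

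Tigit varied least of the 3, by 0.68 on the log2 scale between its highest and lowest array. It read 493 and 503 in Rag1-sufficient GFP+ cells, against 375 and 394 in Rag1-sufficient GFP- cells. The GFP+ arrays were higher with no overlap, by 0.37 ± 0.17 (1.29 times, adjusted p = 0.418). In Rag1-/- cells it read 451 and 604 in the GFP+ fraction, and 525, 574 and 548 in the GFP- fraction. The GFP+ arrays again enclosed all 3 GFP- arrays (difference -0.07 ± 0.16, adjusted p = 0.887, or 0.14 and -0.28 without GFP+ replicate 1 and without replicate 2).

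For all 3 nectin-binding receptors the Rag1-sufficient GFP- cells had the lowest mean of the 4 groups. Mean Cd96 was 1999 ± 49.1 in Rag1-sufficient GFP+, 1881 ± 27.2 in Rag1-/- GFP-, 1811 ± 760 in Rag1-/- GFP+ and 1146 ± 39.1 in Rag1-sufficient GFP- cells (SD, n = 2, 3, 2 and 2). The middle neighbours of that order, Rag1-/- GFP- and Rag1-/- GFP+, overlapped. For Tigit the order was Rag1-/- GFP- (549 ± 24.7), Rag1-/- GFP+ (527 ± 108), Rag1-sufficient GFP+ (498 ± 7.35) and Rag1-sufficient GFP- (385 ± 13.5), in which only the last step was free of overlap. For Cd226 it was Rag1-sufficient GFP+ (383 ± 73.1), Rag1-/- GFP- (313 ± 42.0), Rag1-/- GFP+ (311 ± 156) and Rag1-sufficient GFP- (197 ± 8.32), and every neighbouring pair overlapped.

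Between the genotypes, within GFP- cells, the 3 Rag1-/- arrays lay above both Rag1-sufficient arrays for each of these genes. The Rag1-/- level was 1.64 times the Rag1-sufficient level for Cd96 (0.71 ± 0.22, adjusted p = 0.196), 1.42 times for Tigit (0.51 ± 0.16, adjusted p = 0.196) and 1.57 times for Cd226 (0.65 ± 0.29, adjusted p = 0.289). Omitting Rag1-/- GFP+ replicate 1 or 2 brought the adjusted p of Cd96 to 0.0330 or 0.0359, within a range of 0.0271 to 0.648 over all alternatives. Within GFP+ cells no such separation was seen: Rag1-/- minus Rag1-sufficient was -0.21 ± 0.24 for Cd96, 0.07 ± 0.17 for Tigit and -0.38 ± 0.31 for Cd226. Without Rag1-/- GFP+ replicate 1 these values were positive, and without replicate 2 negative, with ranges over single omitted arrays of -0.65 to 0.23, -0.14 to 0.28 and -0.91 to 0.15. In bulk samples such as these, fewer cells of a type and less RNA per cell cannot be told apart.

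Summed levels of T cell and NK cell markers shared part of the pattern of these receptors, as did only some genes of each list. The summed intensity of the T cell list (15 of 16 genes with a probe set) was 6458 and 11449 in Rag1-/- GFP+ cells (replicates 1 and 2), 8321 to 10360 in Rag1-/- GFP- cells, 7074 to 7233 in Rag1-sufficient GFP+ cells and 4738 to 5015 in Rag1-sufficient GFP- cells. Of its 14 tested genes, 1 passed the adjusted test between genotypes in GFP+ cells, beside 0.246% of all probe sets. It was Cd3e, a chain of the T cell receptor complex, higher in Rag1-/- cells. None was called between the Rag1-sufficient fractions, where 8 of 14 read higher in GFP+ cells (median 0.10). In GFP- cells 11 of 14 read higher in Rag1-/- mice (median 0.46). At an unadjusted p under 0.05, 7 were higher and 2 lower, beside 17.3% of all probe sets in either direction and 10% higher. The NK and ILC1 list (12 genes) summed to 1279 and 3808 in Rag1-/- GFP+ cells, 1529 to 2045 in Rag1-/- GFP- cells, 1382 to 1437 in Rag1-sufficient GFP+ cells and 1004 to 1078 in Rag1-sufficient GFP- cells. Of its 7 tested genes, 4 read higher in GFP+ cells between Rag1-sufficient fractions (median 0.36) and 5 read higher in Rag1-/- mice between GFP- cells (median 0.70). Both sums, like all 3 receptors, had their lowest mean in Rag1-sufficient GFP- cells and were higher in Rag1-/- GFP+ replicate 2 than in replicate 1. In Rag1-sufficient GFP+ cells, where Cd96 and Cd226 had their highest means, both sums lay below every Rag1-/- GFP- array. No listed gene read 0 on any array, and the part of these markers in the receptor values was not tested.

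Btla, a receptor of the immunoglobulin superfamily that binds the herpesvirus entry mediator, differed from the nectin-binding group in its genotype pattern. It read 240 and 223 in Rag1-sufficient GFP+ cells, against 143 and 152 in Rag1-sufficient GFP- cells. The GFP+ arrays were 1.57 times the GFP- arrays without overlap (0.65 ± 0.25, adjusted p = 0.316). Over the alternatives the adjusted p of Btla ran from 0.0341 with array weights to 0.852 without Rag1-sufficient GFP- replicate 2, and was 0.0473 without Rag1-/- GFP+ replicate 2. In Rag1-/- mice it read 97.6 and 183 in GFP+ cells, and 147, 142 and 168 in GFP- cells, with GFP+ arrays below and above all GFP- arrays (-0.18 ± 0.23, adjusted p = 0.807, or 0.27 and -0.63 without GFP+ replicate 1 and without replicate 2). Rag1-sufficient GFP+ cells thus had the highest mean (232 ± 12.1, SD, n = 2), and the other groups, at 152 ± 13.5 in Rag1-/- GFP-, 147 ± 6.0 in Rag1-sufficient GFP- and 141 ± 60.7 in Rag1-/- GFP+ cells, overlapped one after another. Rag1-/- GFP+ cells were at 0.579 times the Rag1-sufficient GFP+ level (-0.79 ± 0.25, adjusted p = 0.503), and between genotypes the GFP- cells differed by 0.04 ± 0.23. Without Rag1-/- GFP+ replicate 1 the GFP+ genotype difference of Btla shrank to -0.34, and without replicate 2 it was -1.24. Its size thus depended on which array of that group was kept.

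Cd200r1, the receptor for the widely expressed CD200, was the most variable of the 9, with 2.96 on the log2 scale between its highest and lowest array. It read 34.1 and 31.7 in Rag1-sufficient GFP+ cells, against 110 on both Rag1-sufficient GFP- arrays. The GFP+ values were below the limit of 41.6 used as a filter, and far under those of the GFP- cells. With the limit standing in for the dim GFP+ cells, the GFP- level was 2.62 times that limit. The fitted difference was -1.72 ± 0.34 (adjusted p = 0.0688), and 1.10% of all probe sets had a smaller p. Leaving out any of 3 Rag1-/- arrays changed the side of the threshold: the adjusted p was 0.0428 when GFP+ replicate 1 was omitted, 0.0434 when GFP+ replicate 2 was, and 0.0368 when GFP- replicate 3 was, while the fitted difference stayed between -1.77 and -1.67. The adjusted p was 0.299 to 0.436 without any one Rag1-sufficient array, and 0.00459 with array weights.

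In Rag1-/- cells Cd200r1 read 136 and 75.9 in the GFP+ fraction, and 171, 121 and 254 in the GFP- fraction. The fractions overlapped, since GFP+ replicate 1 exceeded GFP- replicate 2, and the GFP+ level was 0.587 times the GFP- level (-0.77 ± 0.31, adjusted p = 0.688), at -1.19 without GFP+ replicate 1 and -0.35 without GFP+ replicate 2. Between genotypes, Rag1-/- arrays were above Rag1-sufficient arrays in both fractions. In GFP+ cells the mean Rag1-/- level was 2.41 times the limit, which stands in for the dim Rag1-sufficient cells. The fitted difference was 1.60 ± 0.34 (adjusted p = 0.184), 1.18 when Rag1-/- GFP+ replicate 1 was omitted and 2.01 when replicate 2 was. In GFP- cells the Rag1-/- level was 1.57 times the Rag1-sufficient level (0.65 ± 0.31, adjusted p = 0.317). Group means ran in the order Rag1-/- GFP- (182 ± 67.5), Rag1-sufficient GFP- (110, identical arrays), Rag1-/- GFP+ (106 ± 42.4) and Rag1-sufficient GFP+ (32.9 ± 1.67), and only the neighbours in the middle overlapped. Probe sets of its close relatives Cd200r2, Cd200r3 and Cd200r4 stayed at or below 45.0 on every array.

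Mast cell genes followed the same split of fractions in Rag1-sufficient mice and inside the Rag1-/- GFP+ group. The 13 listed genes summed to 5046 and 1475 in Rag1-/- GFP+ cells (replicates 1 and 2), 4967 to 6311 in Rag1-/- GFP- cells, 1025 to 1133 in Rag1-sufficient GFP+ cells and 10805 to 11001 in Rag1-sufficient GFP- cells. Of 10 tested, 8 were lower in Rag1-sufficient GFP+ than GFP- cells by the adjusted test and none was higher. Over all probe sets 0.803% were called there in either direction. In Rag1-sufficient GFP+ cells the proteases Cpa3 (20.3 and 21.5) and Mcpt4 (23.0 and 25.4) were below the limit, while Cma1 (56.1 and 54.0) and Tpsb2 (78.4 and 78.0) were above it. Across genotypes they parted: in GFP- cells the mast cell sum was lower in Rag1-/- than in Rag1-sufficient mice, while Cd200r1 was higher. The part of mast cell transcripts in the Cd200r1 values was not tested.

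**Figure D2:**
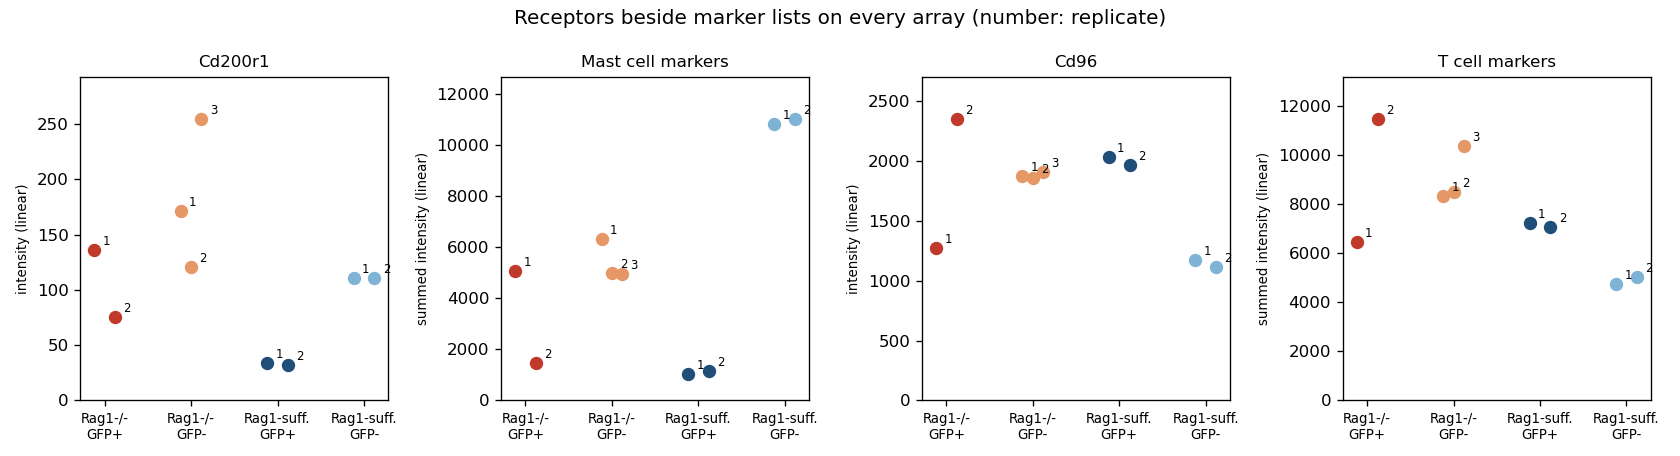
Intensity of Cd200r1 and Cd96 beside the summed intensity of the mast cell and T cell lists (linear axes from 0), 1 point per array with the replicate number beside it. Rag1-/- GFP+ replicates 1 and 2 lie at 136 and 75.9 for Cd200r1, 5046 and 1475 for the mast cell sum, 1274 and 2349 for Cd96, and 6458 and 11449 for the T cell sum.

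Of the checkpoint receptors with classical T cell roles, Pdcd1 was lowest in Rag1-sufficient GFP+ cells. It read 93.8 and 102 in Rag1-sufficient GFP+ cells, against 158 and 145 in Rag1-sufficient GFP- cells. GFP+ arrays were lower without overlap, at 0.650 times the GFP- level (-0.62 ± 0.17, adjusted p = 0.160). In Rag1-/- mice the values were 146 and 144 in GFP+ cells and 182, 138 and 198 in GFP- cells, which overlapped (-0.23 ± 0.15, adjusted p = 0.690). Within GFP+ cells the Rag1-/- level was 1.48 times the Rag1-sufficient level (0.56 ± 0.17, adjusted p = 0.453), and within GFP- cells the difference was 0.17 ± 0.15 (adjusted p = 0.578). The Rag1-sufficient GFP+ cells (98.0 ± 5.96, SD, n = 2) therefore lay below all the other groups, and the rest overlapped in the order Rag1-/- GFP- (172 ± 31.0), Rag1-sufficient GFP- (151 ± 9.16) and Rag1-/- GFP+ (145 ± 1.60). Unlike the nectin-binding receptors, Pdcd1 was nearly equal on the Rag1-/- GFP+ arrays, whose mast cell sums differed as given above.

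Havcr2 separated the genotypes. TIM-3, its product, binds galectin-9 and phosphatidylserine among other ligands. It read 195 and 310 in Rag1-/- GFP+ cells and 365, 220 and 192 in Rag1-/- GFP- cells, against 146 and 146 in Rag1-sufficient GFP+ cells and 192 and 167 in Rag1-sufficient GFP- cells. Every Rag1-/- array was above every Rag1-sufficient array, though Rag1-/- GFP- replicate 3 (192.5) exceeded Rag1-sufficient GFP- replicate 1 (191.6) by less than 1 unit. The genotype difference was 0.75 ± 0.31 in GFP+ cells (1.68 times, adjusted p = 0.706), and 1.08 or 0.42 when Rag1-/- GFP+ replicate 1 or 2 was omitted. In GFP- cells it was 0.48 ± 0.28 (adjusted p = 0.398). Between fractions Havcr2 differed by -0.29 ± 0.31 in Rag1-sufficient mice (adjusted p = 0.806) and by -0.02 ± 0.28 in Rag1-/- mice (adjusted p = 0.988, or 0.31 and -0.35 without GFP+ replicate 1 and without replicate 2).

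Ctla4 and Lag3 were dim and nearly flat, at 64.5 to 90.1 and 58.4 to 88.1 across all arrays. Ctla4 read 65.6 and 68.3 in Rag1-/- GFP+, 69.1, 66.3 and 82.8 in Rag1-/- GFP-, 90.1 and 70.6 in Rag1-sufficient GFP+, and 64.5 and 69.1 in Rag1-sufficient GFP- cells. Lag3, the MHC class II binding relative of CD4, read 88.1 and 66.8 in Rag1-/- GFP+, 70.5, 70.5 and 63.6 in Rag1-/- GFP-, 70.4 and 58.4 in Rag1-sufficient GFP+, and 84.6 and 70.5 in Rag1-sufficient GFP- cells. All neighbouring groups overlapped for both genes. Differences between Rag1-sufficient fractions were 0.25 ± 0.14 for Ctla4 (adjusted p = 0.522) and -0.27 ± 0.16 for Lag3 (adjusted p = 0.556). The Lag3 fractions missed overlap by under 1 unit. Of the receptors, 4 (Ctla4, Lag3, Cd226 and Cd200r1) had identical values on at least 2 arrays. For Lag3, Cd226 and Cd200r1 these included arrays of the same group, so their spread within a group may be understated. The repeated Ctla4 value fell on arrays of different groups.

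Counted over the 9 receptors, GFP+ minus GFP- in Rag1-sufficient mice gave 0 by the adjusted test in limma, where 0.803% of all probe sets were called. At an unadjusted p under 0.05, 5 of 9 passed, beside 13% of all probe sets: Cd96, Cd226 and Btla were higher in GFP+ cells (3, beside 8.16% of all probe sets) and Pdcd1 and Cd200r1 lower (2, beside 4.82%). All 9 had non-overlapping fractions, beside 50.2% of all probe sets, with 5 higher (29% of all) and 4 lower (21.2%) in GFP+ cells. The median difference of the 9 was 0.25, and 0.01 over all probe sets. In Rag1-/- mice the same comparison gave 0 by the adjusted test (0% of all probe sets), 1 at an unadjusted p under 0.05 (Cd200r1, lower, beside 6.29% in either direction and 4.79% lower), and 0 without overlap (15.4%). Without Rag1-/- GFP+ replicate 1 the number without overlap there was 5 (39.4% of all probe sets), and without replicate 2 it was 6 (63.9%).

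Rag1-/- minus Rag1-sufficient within GFP+ cells gave 0 by the adjusted test (0.246% of all probe sets), 4 at an unadjusted p under 0.05 (6.82%) and 5 without overlap (29.5%). Of those 4, Pdcd1, Havcr2 and Cd200r1 were higher in Rag1-/- cells (2.25% of all probe sets) and Btla lower (4.57%). Within GFP- cells it gave 0 by the adjusted test (0.143%), 3 at an unadjusted p under 0.05 (Cd96, Tigit and Cd226, all higher, beside 17.3% in either direction and 10% higher), and 5 without overlap, all higher in Rag1-/- cells (40.6% in either direction and 23% higher). The median difference of the receptors there was 0.48. Averaged over genotypes, the fraction difference gave 0 calls (0.212% of all probe sets) and 2 at an unadjusted p under 0.05 (Pdcd1 at -0.43 ± 0.11 and Cd200r1 at -1.24 ± 0.23, beside 7.38%, of which 4.04% lower), and 0 without overlap (1.32%). With Rag1-/- GFP+ replicate 1 omitted, Cd200r1 (adjusted p = 0.0484) and Cd96 (adjusted p = 0.0359) passed there, and without Rag1-sufficient GFP- replicate 2 their adjusted p was 0.383 and 1. Averaged over fractions, the genotype difference gave 0 calls (0.086%) and 4 at an unadjusted p under 0.05, all higher in Rag1-/- cells: Pdcd1 (0.37 ± 0.11), Havcr2 (0.61 ± 0.21), Tigit (0.29 ± 0.12) and Cd200r1 (1.12 ± 0.23), beside 9.84% in either direction and 4.14% higher. Havcr2 alone had no overlap there (2.98%). These comparisons reuse the same 4 groups and are not independent of each other.

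**Figure D3:**
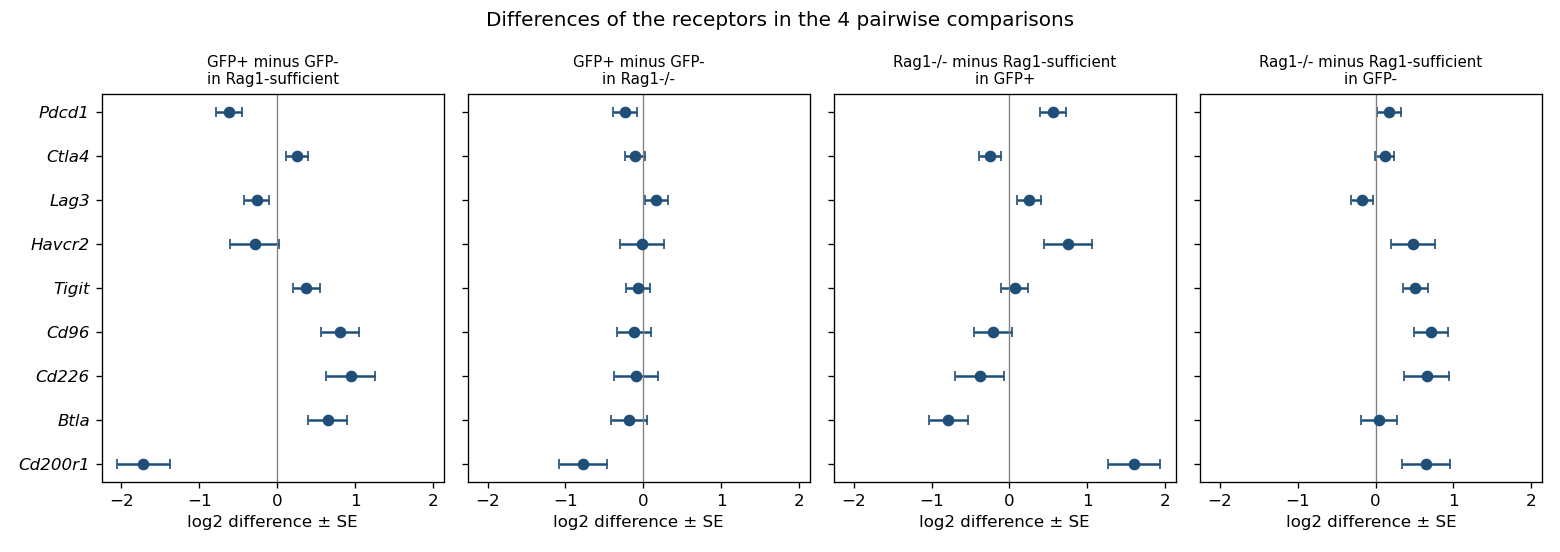
Log2 difference of each receptor (point, with bars of 1 SE from limma) in the 4 comparisons of a pair of groups. Cd200r1 lies farthest from 0 for the fractions in Rag1-sufficient mice (-1.72) and for the genotypes in GFP+ cells (1.60), and the GFP- genotype panel shows Tigit, Cd96 and Cd226 at 0.51, 0.71 and 0.65.

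Whether the fraction difference itself depended on the genotype was tested as an interaction, the Rag1-/- difference minus the Rag1-sufficient one. It gave 0 of 9 by the adjusted test (0% of all probe sets) and 3 at an unadjusted p under 0.05 (13.6%, or 9.85% negative), all negative: Cd226 at -1.03 ± 0.43 (adjusted p = 0.345), Cd96 at -0.92 ± 0.33 (adjusted p = 0.301) and Btla at -0.83 ± 0.34 (adjusted p = 0.342). Tigit was at -0.44 ± 0.23, Ctla4 at -0.36 ± 0.19, Havcr2 at 0.27 ± 0.42, Pdcd1 at 0.39 ± 0.23, Lag3 at 0.43 ± 0.21 and Cd200r1 at 0.95 ± 0.46. These sizes moved with either Rag1-/- GFP+ array, and leaving out 1 of them leaves 1 array in that group. Without replicate 2 the interaction was -1.36 for Cd96, -1.28 for Btla and -1.57 for Cd226. Without replicate 1 the interaction shrank to -0.48 for Cd96, -0.50 for Cd226 and -0.38 for Btla. That of Cd200r1 was 0.53 without replicate 1 and 1.36 without replicate 2, that of Lag3 0.24 and 0.63, that of Tigit -0.23 and -0.65, and that of Havcr2 0.60 and -0.057.

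**Figure D4:**
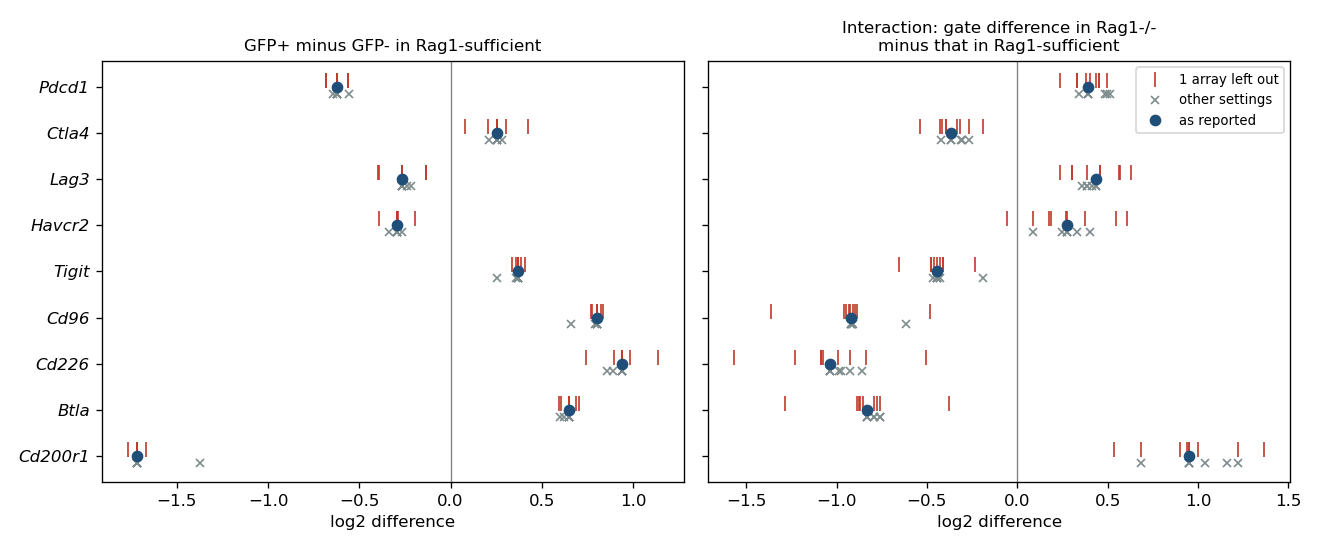
Log2 differences of the receptors as reported (dots), with 1 array left out (red ticks) and under the other settings (grey crosses), for the fractions in Rag1-sufficient mice and for the interaction. Signs hold throughout on the left, while the interaction of Cd96 runs between -1.36 and -0.48 as single arrays are left out.

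Ligands of the receptors were read in the same sorted cells. Of the 12 listed ligands of PD-1, CTLA-4, LAG-3, TIM-3, BTLA and the CD200 receptor, 9 were bright enough to test. None passed the adjusted test in any of the 7 comparisons. Between Rag1-sufficient fractions 1 was higher and 1 lower at an unadjusted p under 0.05, beside 8.16% and 4.82% of all probe sets. The median difference of the 9 ligands there was 0.036. Cd80, which encodes the B7 ligand of CTLA-4 and CD28, read 550 and 557 in Rag1-sufficient GFP+ cells, against 196 and 152 in Rag1-sufficient GFP- cells. It read 78.9 and 209 in Rag1-/- GFP+ cells, and 93.5, 104 and 102 in Rag1-/- GFP- cells, so that Rag1-sufficient GFP+ cells stood above all others. The differences were 1.67 ± 0.37 between Rag1-sufficient fractions (adjusted p = 0.0997) and -2.10 ± 0.37 between Rag1-/- and Rag1-sufficient GFP+ cells (adjusted p = 0.0894). Cd274, the PD-L1 gene, read 825 and 764 in Rag1-sufficient GFP+ cells, against 1271 and 1157 in Rag1-sufficient GFP- cells (-0.61 ± 0.25, adjusted p = 0.350). The dendritic cell list, whose cells also use Cd80, summed to 2400 to 2667 in Rag1-sufficient GFP+ cells, against 2964 to 3360 in Rag1-sufficient GFP- cells, and its part in the Cd80 values was not tested.

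**Figure D5:**
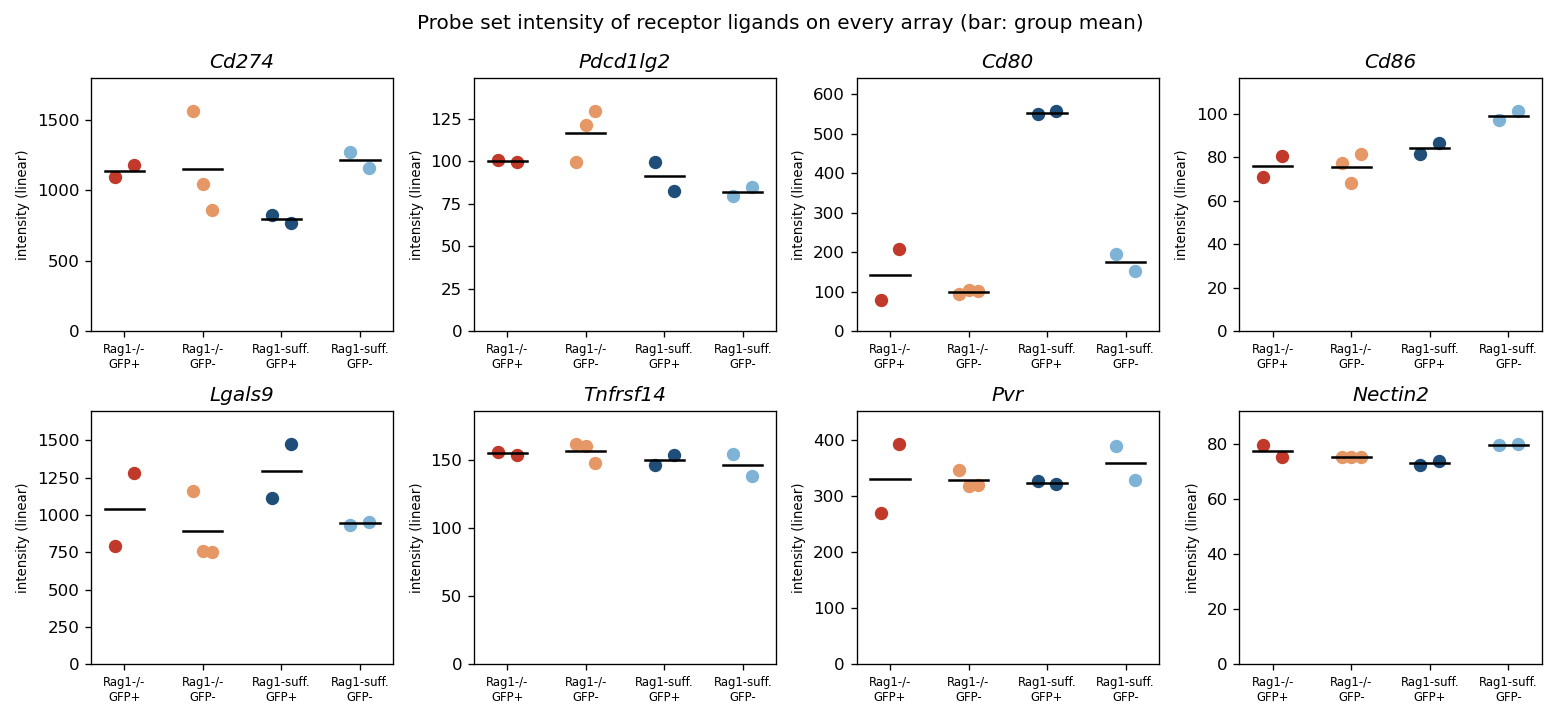
Intensity of 8 receptor ligands (linear axes from 0), 1 point per array and a bar at the group mean. Cd80 reads 550 and 557 in Rag1-sufficient GFP+ cells and no more than 209 on any other array.

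The nectins and nectin-like ligands (6 listed, 6 tested) gave 0 calls in any comparison. Between Rag1-sufficient fractions 1 was lower at an unadjusted p under 0.05 (4.82% of all probe sets), and the median of the 6 was -0.13. Pvr, the poliovirus receptor that CD226, TIGIT and CD96 all bind, read 326 and 321 in Rag1-sufficient GFP+ cells, against 388 and 328 in Rag1-sufficient GFP- cells (-0.14 ± 0.20). Among 14 other receptors of the same families, 7 were tested, with 0 calls. Cd28, the costimulatory receptor that shares its ligands with CTLA-4, read 101 and 142 in Rag1-/- GFP+ cells and 154, 68.3 and 126 in Rag1-/- GFP- cells, against 234 and 312 in Rag1-sufficient GFP+ cells and 210 and 263 in Rag1-sufficient GFP- cells. Every Rag1-/- array was below every Rag1-sufficient one, by 1.17 ± 0.35 in GFP+ cells (-1.17, adjusted p = 0.469) and 1.09 ± 0.32 in GFP- cells (-1.09, adjusted p = 0.190). Cd101, an inhibitory immunoglobulin family receptor, read 338 and 417 in Rag1-/- GFP+ cells, against 540, 839 and 715 in Rag1-/- GFP- cells. Those fractions did not overlap (-0.87 ± 0.20, adjusted p = 0.688). In GFP- cells the Rag1-/- level of Cd101 exceeded 333 and 353 in Rag1-sufficient mice (1.0 ± 0.20, adjusted p = 0.101).

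Inside the cell, the 17 tested signalling partners (of 19 listed, such as the phosphatases that inhibitory receptors recruit) gave 0 calls in any comparison. Their medians were -0.03 between Rag1-sufficient fractions and -0.13 between Rag1-/- fractions, where Vav1, an exchange factor downstream of antigen receptors, was at -0.48 ± 0.21 and Fyn, a kinase of the Src family, at -0.48 ± 0.16 (adjusted p = 0.688 for both). Of the transcription factors linked to expression of these receptors, 12 of 14 were tested and 0 called. Tbx21, which encodes T-bet and is also on the NK and ILC1 list, read 343 and 330 in Rag1-sufficient GFP+ cells, against 203 and 193 in Rag1-sufficient GFP- cells (0.76 ± 0.32, adjusted p = 0.366). In Rag1-/- cells it read 283 and 661 in the GFP+ fraction, and 330, 317 and 317 in the GFP- fraction, with GFP+ arrays on either side as for the nectin-binding receptors.

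The genes with the most similar profile over the 9 arrays were listed for the 6 receptors whose range was at least 1 on the log2 scale, as Pearson correlations, with no test since the arrays share the 4 groups. Pdcd1 was closest to Otulinl (0.970), Inpp4b (0.967) and Nedd4l (0.966). Cd200r1 was closest to Ero1a (0.988), Nedd4l (0.972) and Inpp4b (0.964), so the pair shares Nedd4l, a ubiquitin ligase, and Inpp4b, a phosphoinositide phosphatase. Cd96 was closest to Pigp (0.978), Tmem154 (0.974) and Ntan1 (0.971), and Cd226 to Smdt1 (0.974), Cript (0.967) and Ciao2a (0.965). Btla was closest to St3gal6 (0.974), Dbi (0.959) and Gyg (0.956). Havcr2 had the loosest matches, led by Lgals3bp (0.939), which encodes a galectin-binding protein, with Trim30d (0.928) and Tnfsf8, the CD30 ligand (0.917).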

How the data were processed

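Values deposited by the authors are linear intensities, 1 for each probe set on each array. MAS5 is named in the submitters' processing notes, with no version; genome build and between-array normalization are not given in the sources used here. Intensities were used as deposited, as log2(value + 1). Probe sets in the lowest 30% by mean were dropped, and limma 3.58.1 in R 4.3.3 was fitted with 1 mean per group over all 9 arrays (eBayes with trend, 5 residual and 3.56 prior degrees of freedom). Tests were two-sided with Benjamini-Hochberg adjustment over 17445 probe sets and a threshold of 0.05. The fit was tested on simulated data with the same spread on every array. That test did not cover unequal spread between groups, such as the wider Rag1-/- GFP+ replicates.

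Names came from the platform annotation (21425 probe sets with 1 symbol, 1399 with several, 2098 with none), of which 21347 matched GRCm38.p6 by gene identifier, used for gene order and promoters. The receptors and gene lists were chosen with earlier results of these data known. Every receptor is named. From the lists of partners, those called in a comparison were to be named, or the leading 2 by size. Cd274, Pvr, Fyn and Rag1 were added after their values were seen. Alternatives were a pseudocount of 16, filters of 50% and none, quantile normalization, array weights, no trend, a replicate block and each array left out. Putting the filter limit in place of a dimmer group, for Cd200r1, was added after the values were seen, as were the counts at an unadjusted p and without overlap under other settings. The number of arrays limits precision.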

Additional observations from a re-analysis of the deposited data

How the results depend on the processing

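Differences of the receptors were recomputed 427 times under other settings and 567 times with an array left out. Direction and side of the threshold held in 412 and 530 of these, and sizes of 0.38 or less on the log2 scale account for every reversal. By the adjusted test the array weights called 5 receptors between Rag1-sufficient fractions (Pdcd1, Cd96, Cd226, Btla and Cd200r1) and 2 between genotypes in GFP- cells (Tigit and Cd96). Leaving out single arrays moved the number of receptors called in several comparisons, and the number of all probe sets called in each of these. Most such fits left 1 array in a group, so counts of receptors called are not given for them. At an unadjusted p under 0.05 with every array kept, 5 or 6 receptors passed between Rag1-sufficient fractions and 0 or 1 between Rag1-/- fractions. Between genotypes 4 passed in GFP+ cells and 2 or 3 in GFP- cells. Averaged over genotypes 2 to 4 passed, and averaged over fractions 3 to 5. Shares of all probe sets at that p were taken for the reported setting only. In the same order they were 13%, 6.29%, 6.82%, 17.3%, 7.38% and 9.84%. Over all probe sets, the 140 calls between Rag1-sufficient fractions became 3 without GFP- replicate 2 and 1290 with array weights. Other counts went between 0 and 7 (reported 0, Rag1-/- fractions), 1 and 135 (43, genotypes in GFP+), 1 and 1168 (25, genotypes in GFP-), 0 and 136 (37) and 2 and 64 (15) for the averages, and 0 and 500 (0) for the interaction.

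Reversals between Rag1-/- fractions were Havcr2 at 0.039 with array weights and 0.067 with quantile normalization, and Tigit at 0.066 and Cd96 at 0.046 with quantile normalization. Btla between genotypes in GFP- cells was -0.012 with quantile normalization. With single arrays left out, Rag1-/- fraction differences ran from -0.63 to 0.27 for Btla, -0.63 to 0.44 for Cd226, -0.56 to 0.32 for Cd96, -0.35 to 0.31 for Havcr2, -0.029 to 0.37 for Lag3 and -0.28 to 0.14 for Tigit. Genotype differences in GFP+ cells ran from -0.91 to 0.15 for Cd226, -0.65 to 0.23 for Cd96 and -0.14 to 0.28 for Tigit, and in GFP- cells from -0.026 to 0.091 for Btla. Averaged fraction differences ran from -0.32 to 0.010 for Havcr2, -0.016 to 0.16 for Ctla4 and -0.15 to 0.050 for Lag3. Averaged genotype differences ran from -0.15 to 0.020 for Ctla4, -0.060 to 0.14 for Lag3 and -0.13 to 0.40 for Cd226. The Havcr2 interaction ran from -0.057 to 0.60. The cause was not tested.

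Replicate numbers are shared between groups in the labels. Deviations of same-numbered arrays correlated between -0.51 and 0.24 over 12 pairs, above 0.1 in 2, so the numbers were not taken to pair samples. With the number as a replicate block, 1 receptor was called between Rag1-sufficient fractions (Cd200r1, adjusted p = 0.0380), Cd226 between Rag1-/- fractions was 0.013, and Btla between genotypes in GFP- cells was -0.026. The 50% filter left out Ctla4 and Lag3. Levels of Cd200r1 in Rag1-sufficient GFP+ cells were below the filter limit, where signal over background limits precision.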
